A study of Mus musculus with 4 samples.

Results

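The interferon regulatory factors (Irfs) are transcription factors, and 8 genes of the family were measured in cultured peritoneal macrophages: Irf1, Irf2, Irf3, Irf4, Irf5, Irf7, Irf8 and Irf9. They were chosen by name and not by their values, and are 8 of the 16403 gene IDs listed in any library. Each of the 8 was listed in all 4 libraries.

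The study asked how Trim24 (also called TIF1a), a ubiquitin ligase, bears on macrophage polarization by IL-4. All cells came from C57BL/6 mice 6 to 8 weeks old and were collected at least 4 days after intraperitoneal injection of 4% thioglycolate. They were left to adhere for 4 h, washed and kept in medium with 0.5% serum. The wild-type group came from littermate controls and the TIF1a-KO group from Trim24 flox/flox LysM-Cre mice, whose Cre is driven by the lysozyme M promoter and is active in myeloid cells. Each genotype was either left untreated or stimulated with IL-4 at 20 ng/mL for 6 h, and total RNA was sequenced. Each of the 4 groups is 1 library, and the number of mice behind a library is not given in the sources used here. Every test on a pair of libraries therefore measures counting error between those libraries, with no replicate check of the condition.

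Irf proteins share a DNA-binding domain that recognizes GAAA repeats, but they act at different steps. Irf3 and Irf7 are latent factors that are activated downstream of nucleic acid sensors and Toll-like receptors and switch on type I interferon genes. Irf9 is the DNA-binding part of ISGF3, the complex that turns on interferon-stimulated genes. Irf1 activates interferon-gamma target genes, and Irf2 binds the same sites and often opposes it. Irf5 drives inflammatory cytokine genes, Irf8 is a lineage factor of monocytes and macrophages, and Irf4 is induced by IL-4 and is needed for M2 polarization, the alternative activation state of macrophages.

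The libraries held 11026033 to 11250099 expected reads, at which the 3 reads that a count of 0 still allows correspond to 0.267 to 0.272 CPM (reads scaled to the library total). Trim24 stood at 2.55 FPKM (reads scaled to transcript length and library total) in wild-type untreated, 1.48 in wild-type IL-4, 0.06 in TIF1a-KO untreated and 0.14 in TIF1a-KO IL-4, so both knockout libraries were low. The 6 macrophage markers summed to 3525.8 to 3926.1 FPKM. Markers of lymphoid and dendritic cells, which also use Irf4 and Irf8, were low: the 5 B cell markers summed to 4.23 to 6.52 FPKM, the 5 conventional dendritic cell markers to 0.88 to 1.21, and the 6 T or NK cell markers to 0.43 to 1.35, with Trac at 0. The plasma cell sum of 75.8 to 143 FPKM was almost entirely Sdc1, with Jchain at most 0.13 and Mzb1 at most 0.40. The plasmacytoid dendritic cell sum of 73.7 to 111 FPKM was almost entirely Bst2, an interferon-stimulated gene, with Siglech at 0 in 3 libraries and at 0.08 in the other one. Neutrophil (7.05 to 11.6 FPKM, Ly6g and S100a9 at 0), eosinophil (1.06 to 2.04, Epx at 0) and mast cell (2.55 to 5.99) markers were low as well. The 6 mesothelial or stromal markers summed to 23.7, 18, 11.3 and 23.8 FPKM in wild-type untreated, wild-type IL-4, TIF1a-KO untreated and TIF1a-KO IL-4, and their part in the small Irf differences below was not tested.

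Irf5 was the most abundant member in every library, followed in 3 of the 4 by Irf8. In wild-type untreated macrophages the order by FPKM was Irf5 (101.75), Irf8 (68.83), Irf2 (28.07), Irf3 (25.15), Irf1 (22.14), Irf9 (14.35), Irf7 (13.44) and Irf4 (0.57). Of these neighbours, only Irf9 and Irf7 lay within the 95% counting interval of their ratio. Irf5 was above 95.6% and Irf4 above 24.4% of the genes listed in that library. Among TIF1a-KO untreated macrophages the same genes led and Irf4 was again last, while neither Irf1 and Irf2, Irf2 and Irf3, nor Irf7 and Irf9 could be ordered beyond counting error. With IL-4 the order changed: Irf1 and Irf8 could not be separated in wild-type, Irf4 stood level with Irf9 in wild-type and above it in TIF1a-KO, and Irf7 was last in both, though not separable from Irf9 in TIF1a-KO.

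**Figure D1:**
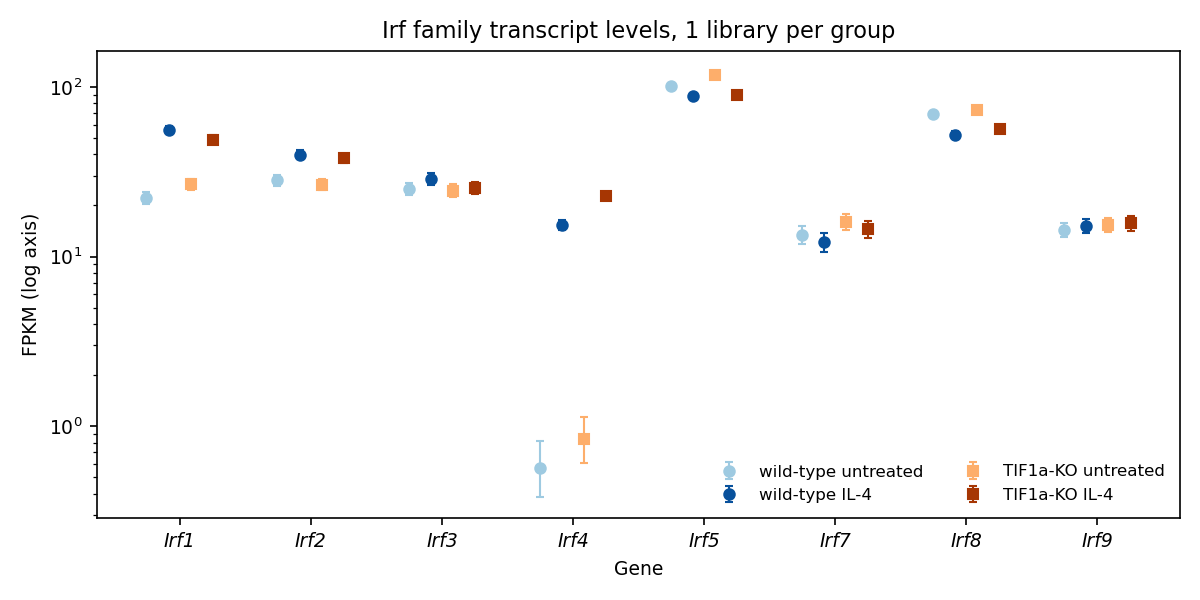
FPKM of 8 Irf genes on a log axis in wild-type (circles) and TIF1a-KO (squares) macrophages, untreated (light) and with IL-4 (dark), 1 library per point, with bars for 95% counting intervals. Irf4 is at 0.57 and 0.84 FPKM untreated and at 15.40 and 22.75 with IL-4, while Irf3, Irf7 and Irf9 stay within a narrow band.

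The start-site regions of the 4 members with the clearest IL-4 differences besides Irf5, namely Irf4, Irf1, Irf2 and Irf8, are shown with the motifs of the factors that act downstream of IL-4 and of the Irf proteins themselves. The letters are the 250 bases before the RefSeq start (GRCm38.p6, plus strand, 5′ to 3′), with motif matches in capitals. The motifs were the STAT6-type TTCNNNNGAA, the GAS element TTCNNNGAA of other STAT dimers, the ISRE core GAAANNGAAA of IRFs, and the EICE GGAANNGAAA bound by PU.1 with Irf4 or Irf8, each searched on both strands.
Irf4, chr13:30748983-30749232: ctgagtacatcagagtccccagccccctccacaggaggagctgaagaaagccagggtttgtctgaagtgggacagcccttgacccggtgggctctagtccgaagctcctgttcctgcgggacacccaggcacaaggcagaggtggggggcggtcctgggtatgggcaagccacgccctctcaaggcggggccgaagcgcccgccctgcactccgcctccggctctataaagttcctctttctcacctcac
Irf1, chr11:53769764-53770013: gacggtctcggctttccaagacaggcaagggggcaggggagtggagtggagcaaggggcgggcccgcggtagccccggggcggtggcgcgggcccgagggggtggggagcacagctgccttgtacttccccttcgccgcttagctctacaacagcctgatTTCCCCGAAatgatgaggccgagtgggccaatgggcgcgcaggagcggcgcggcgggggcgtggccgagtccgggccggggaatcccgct
Irf2, chr8:46739495-46739744: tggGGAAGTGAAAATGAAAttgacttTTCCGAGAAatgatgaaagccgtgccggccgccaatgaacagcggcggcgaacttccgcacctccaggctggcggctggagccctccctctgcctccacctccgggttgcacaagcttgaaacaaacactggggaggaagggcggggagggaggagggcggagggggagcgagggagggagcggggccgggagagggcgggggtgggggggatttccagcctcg
Irf8, chr8:120736108-120736357: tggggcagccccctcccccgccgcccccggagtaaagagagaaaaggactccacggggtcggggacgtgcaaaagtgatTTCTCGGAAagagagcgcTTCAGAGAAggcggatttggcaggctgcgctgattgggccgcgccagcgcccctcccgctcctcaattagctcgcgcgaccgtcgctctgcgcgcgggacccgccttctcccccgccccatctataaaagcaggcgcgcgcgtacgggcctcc

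The Irf1 region held 1 GAS match, TTCCCCGAA, whose first base lies 90 bases before the start. The Irf8 region held 2, TTCTCGGAA at 171 and TTCAGAGAA at 153 bases before the start. In the Irf2 region an EICE match (GGAAGTGAAA, 247 bases before the start) overlapped an ISRE match (GAAAATGAAA, 241 bases before), and a GAS match (TTCCGAGAA) began 224 bases before the start. None of the 4 motifs was found in the Irf4 region, nor in that of Irf5, which is not shown. By chromatin immunoprecipitation the study reported IL-4-activated Stat6 binding at the Irf4 promoter, stronger with Trim24 loss. The bases bound there are not given here. Over the 11 windows of the 8 members, each running to 50 bases after a start, 4 held a match. The only STAT6-type match was TTCCTGGGAA in 1 of the 2 Irf9 windows, 2 bases into the transcript. Of all 32851 RefSeq windows of 300 bases, 6.95% held a STAT6-type, 8.3% a GAS, 3.44% an ISRE and 2.72% an EICE match. The share of all windows with any of the 4 motifs was not counted, so the 4 of 11 cannot be set against it. Such matches describe letters and not binding.

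IL-4 stimulation raised Irf4 far more than any other member. Irf4 was at 0.57 FPKM (30 reads, 95% counting interval 0.38 to 0.81 FPKM) in wild-type untreated and at 15.40 (820 reads, 14.4 to 16.5) in wild-type IL-4, and at 0.84 (44 reads, 0.61 to 1.13) in TIF1a-KO untreated and 22.75 (1186 reads, 21.5 to 24.1) in TIF1a-KO IL-4. Both IL-4 libraries were far above both untreated ones, and the untreated values rest on few reads. The increase was 23.1-fold in wild-type (log2 ratio 4.53, Fisher's exact test, adjusted p = 8.6e-196) and 24.3-fold in TIF1a-KO (log2 ratio 4.60, adjusted p = 2e-287), on the log2(FPKM + 0.1) scale used for all ratios, which understates the change of low genes. On the ratio of reads the log2 values were 4.72 (95% counting interval 4.20 to 5.24) and 4.74 (4.31 to 5.17). Because these are bulk RNA samples, a change in the number of cells that make a transcript and a change in transcript per cell cannot be told apart.

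Irf1 and Irf2, the activator and its antagonist, were both higher with IL-4. Irf1 stood at 22.14 FPKM (526 reads) in wild-type untreated, 55.84 (1353) in wild-type IL-4, 26.64 (632) in TIF1a-KO untreated and 48.95 (1161) in TIF1a-KO IL-4. Irf1 thus rose 2.52-fold in wild-type (log2 ratio 1.33 with a counting SE of 0.0741, Fisher's exact test, adjusted p = 1.3e-78) and 1.83-fold in TIF1a-KO (0.88, SE 0.0713, adjusted p = 8.8e-35). Irf2 was at 28.07, 39.85, 26.57 and 37.83 FPKM in the same order of libraries. Irf2 rose by the same factor of 1.42 in both genotypes (log2 ratios 0.50 and 0.51, Fisher's exact test, adjusted p = 5.8e-13 and 2.8e-12), below the fold of 1.5. The FPKM ratio of Irf1 to Irf2 went from 0.789 to 1.4 in wild-type and from 1 to 1.29 in TIF1a-KO.

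The 2 most abundant members moved the other way. Irf5, the inflammatory factor, was at 101.75 FPKM in wild-type untreated, 88.61 in wild-type IL-4, 117.92 in TIF1a-KO untreated and 89.60 in TIF1a-KO IL-4. Both IL-4 libraries were lower, and the difference between the genotypes was in the untreated pair. Irf5 fell by 0.20 on the log2 scale in wild-type (Fisher's exact test, adjusted p = 2.7e-05) and fell by 0.40 in TIF1a-KO (adjusted p = 9.5e-20). The annotated gene overlaps Tnpo3 by 1043 bases, and whether counting used strand is not stated. Tnpo3 itself was at 20.40 to 22.37 FPKM and passed the test in none of the 4 pairs. Irf8, the lineage factor, was at 68.83 and 52.34 FPKM in wild-type (untreated, then IL-4) and at 72.81 and 56.60 in TIF1a-KO. Irf8 fell by 0.39 on the log2 scale in wild-type and fell by 0.36 in TIF1a-KO (Fisher's exact test, adjusted p = 3.8e-16 and 1.8e-14), again in both genotypes and by less than 1.5-fold.

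Of the members of the interferon induction and signalling steps, Irf3, Irf7 and Irf9, none passed Fisher's exact test with IL-4 in either genotype. Irf3, a latent factor, was at 25.15 and 28.62 FPKM in wild-type and at 24.50 and 25.24 in TIF1a-KO (untreated, then IL-4), with log2 ratios of 0.19 and 0.04 (95% counting intervals 0.03 to 0.35 and -0.13 to 0.20). Irf7, which is itself an interferon-stimulated gene, was at 13.44 and 12.17 FPKM in wild-type and at 15.98 and 14.50 in TIF1a-KO, a log2 ratio of -0.14 in each. Irf9 was at 14.35 and 15.12 FPKM in wild-type and at 15.32 and 15.68 in TIF1a-KO, with log2 ratios of 0.07 and 0.03, and was the only member whose expected counts were not whole. Their adjusted p values were 0.067 (Irf3), 0.32 (Irf7) and 0.56 (Irf9) in wild-type and 0.88, 0.5 and 0.95 in TIF1a-KO (Fisher's exact test). In wild-type the 95% counting interval ran from -0.43 to 0.07 for Irf7 and from -0.10 to 0.29 for Irf9 on the log2 scale of reads. Irf3 in wild-type was near the threshold and passed in 3 of 10 alternatives, with adjusted p of 0.049 among genes averaging 1 FPKM or more, 0.023 with TMM and 0.027 with DESeq2 size factors.

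Counted over the family, a gene was called when its adjusted p was under 0.05 and its fold over 1.5. IL-4 called 2 of 8 members in each genotype, Irf4 and Irf1, both higher. Over all genes tested, 4.91% were called higher and 7.88% lower in wild-type, and 5.29% and 4.03% in TIF1a-KO. With no fold limit, 3 members were higher (Irf1, Irf2, Irf4) and 2 lower (Irf5, Irf8) in each genotype, against 15.1% of genes higher and 17.7% lower in wild-type and 13.2% and 11.8% in TIF1a-KO. Counting tests pass more often at high read numbers: among genes averaging 10 FPKM or more over the libraries, as every member but Irf4 did, 32.1% passed higher and 24% lower in wild-type, and 25.4% and 19.7% in TIF1a-KO. Passing without a fold limit was thus common at these levels. When a biological coefficient of variation of 0.1 was assumed in place of counting error alone, the passes of Irf2, Irf5 and Irf8 were lost in both genotypes (adjusted p from edgeR's exact test 0.15, 0.78 and 0.32 in wild-type, 0.2, 0.42 and 0.51 in TIF1a-KO), and the call of Irf1 was lost at 0.2 (0.076 and 0.73). The call of Irf4 held at 0.4 in both genotypes (0.0014 and 0.0022).

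**Figure D2:**
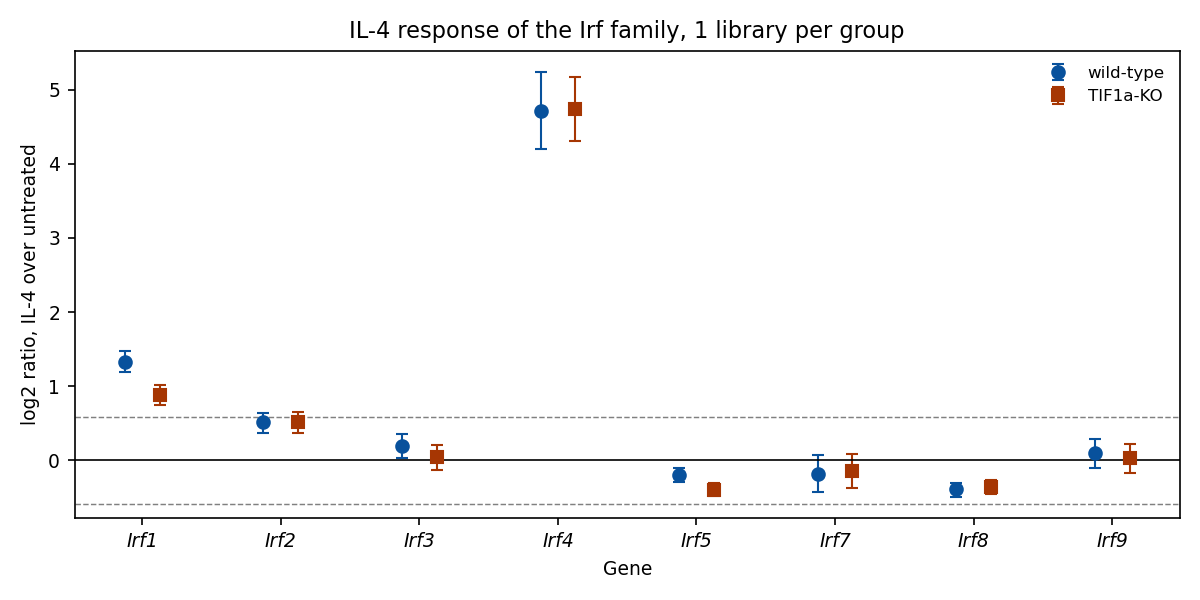
log2 ratio of IL-4 over untreated reads for 8 Irf genes in wild-type (circles) and TIF1a-KO (squares), 1 library per group, with bars for 95% counting intervals and dashed lines at a 1.5-fold change. Irf4 lies at 4.72 and 4.74, Irf1 is the only other gene past the dashed line, and its 2 intervals, 1.19 to 1.48 and 0.74 to 1.02, do not overlap.

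Added over the 8 genes, the Irf transcript pool was 274.3 FPKM in wild-type untreated, 308.0 in wild-type IL-4, 300.6 in TIF1a-KO untreated and 311.1 in TIF1a-KO IL-4. Its makeup changed more than its size. Irf5 and Irf8 together made up 62.2% and 63.5% of it without IL-4 (wild-type, TIF1a-KO) and 45.8% and 47% with IL-4. Irf4 went from 0.208% to 5% in wild-type and from 0.279% to 7.31% in TIF1a-KO, and Irf1 from 8.07% to 18.1% and from 8.86% to 15.7%. Irf8 transcripts outnumbered those of Irf4, its close relative and co-partner of PU.1, by 121 to 1 (FPKM ratio) in wild-type untreated and by 3.4 to 1 in wild-type IL-4, and by 86.7 and 2.49 in TIF1a-KO.

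**Figure D3:**
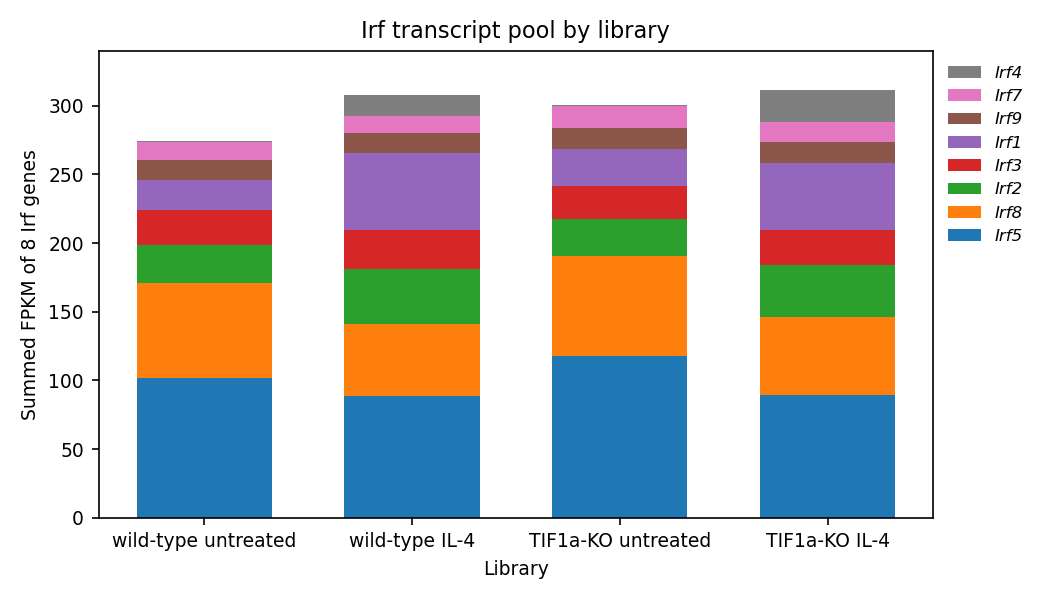
Stacked FPKM of 8 Irf genes in each of the 4 libraries (1 per group), drawn from 0 in order of abundance from Irf5 at the base to Irf4 at the top. The pool runs from 274.3 to 311.1 FPKM, and the Irf4 segment is visible only in the 2 IL-4 libraries.

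Between the genotypes, no member was called. Without IL-4, 0 of 8 were called against 1.58% of all genes (247 genes, with 2567 at an unadjusted p under 0.05), and with IL-4, 0 of 8 against 3.81%. With no fold limit 2 of 8 passed in each state, against 6.63% of genes without and 19.9% with IL-4 (13.4% and 37.7% among genes averaging 10 FPKM or more). Untreated TIF1a-KO macrophages had more Irf1 (26.64 against 22.14 FPKM, log2 ratio 0.27, 95% counting interval 0.10 to 0.43, adjusted p = 0.032 by Fisher's exact test) and more Irf5 (117.92 against 101.75, log2 ratio 0.21, interval 0.14 to 0.30, adjusted p = 3.9e-06). With IL-4, TIF1a-KO had less Irf1 (48.95 against 55.84 FPKM, log2 ratio -0.19, interval -0.30 to -0.08, adjusted p = 0.0068 by Fisher's exact test), while the log2 ratio of Irf5 was 0.02 (adjusted p = 0.83). The Irf1 ratios, 1.20-fold higher and 1.14-fold lower, have opposite signs.

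Irf4 was the member with the widest genotype ratio. With IL-4 it was 1.47-fold higher in TIF1a-KO (22.75 against 15.40 FPKM, log2 ratio 0.56, 95% counting interval 0.43 to 0.69, adjusted p = 2.8e-16 by Fisher's exact test), just under the fold of 1.5. Without IL-4 it was 1.40-fold higher from 44 against 30 reads (log2 ratio 0.49, adjusted p = 0.47), and the interval of the read ratio, -0.12 to 1.21, covers both no difference and a value over 2-fold. Ratios of the IL-4 pair moved with transcript length over all genes (Spearman's rho 0.518 across 10443 genes, which are not independent replicates). Irf4 has the longest transcript of the family (4683 bases), and once that trend, 0.16 at its length, was taken off, its ratio was 0.40. Assuming a biological coefficient of variation of 0.1, the Irf4 ratio no longer passed (adjusted p = 0.32 by edgeR's exact test). The other members, Irf2, Irf3, Irf7, Irf8 and Irf9, had genotype log2 ratios of -0.18 to 0.25 in both states, and none passed.

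**Figure D4:**
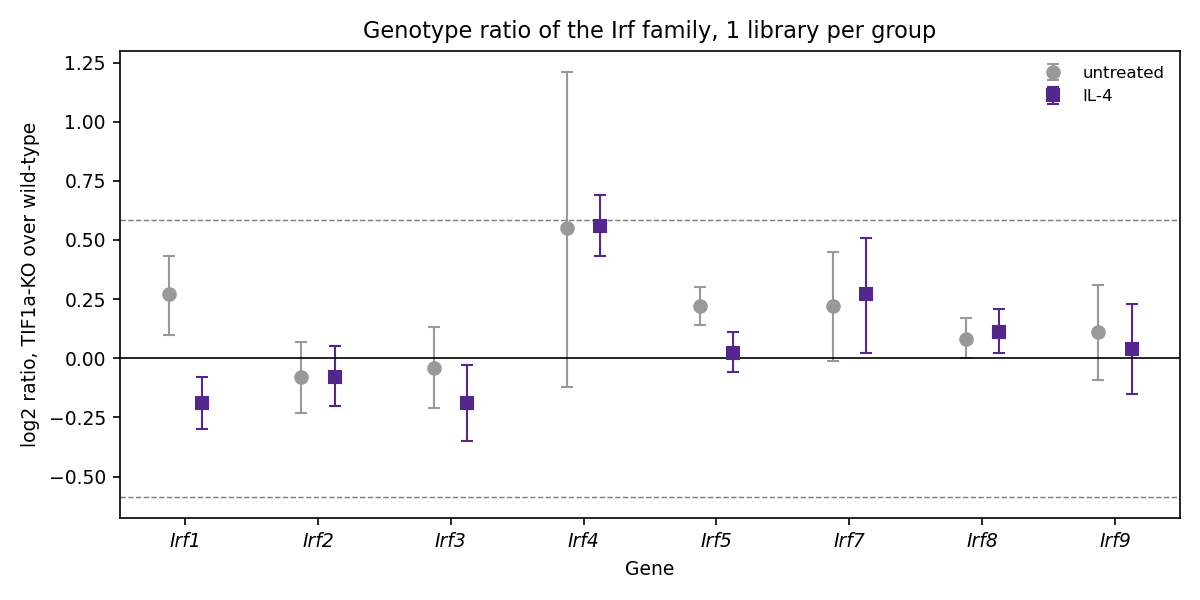
log2 ratio of TIF1a-KO over wild-type reads for 8 Irf genes, untreated (circles) and with IL-4 (squares), 1 library per group, with bars for 95% counting intervals and dashed lines at a 1.5-fold difference. Irf4 lies near 0.55 in both states, with a wide untreated interval of -0.12 to 1.21, and Irf1 lies above 0 untreated and below 0 with IL-4.

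Whether the IL-4 response itself differed was asked with all 4 libraries, as the log2 response in TIF1a-KO minus that in wild-type. No member was called, against 2.88% of genes, and 2 of 8 passed without the fold limit, against 12.8% of all genes and 18.3% of those averaging 10 FPKM or more. The response of Irf1 was smaller in TIF1a-KO by a log2 difference of -0.46 (95% counting interval -0.66 to -0.26, adjusted p = 0.00022 by a normal test on counting errors across all genes), from 22.14 to 55.84 FPKM in wild-type and from 26.64 to 48.95 in TIF1a-KO. For Irf5 the difference was -0.20 (interval -0.31 to -0.08, adjusted p = 0.014 by the same test). For Irf4 it was 0.02 with an interval of -0.66 to 0.69, which is wide because of the low untreated counts, and its fold of induction could not be ordered between the genotypes. For Irf2, Irf3, Irf7, Irf8 and Irf9 the differences ran from -0.15 to 0.05. Adding a biological coefficient of variation of 0.1 to the counting error, chosen after the data were seen, left neither Irf1 nor Irf5 past the test (adjusted p = 1 for both from the same normal test across all genes).

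An additive model of genotype and treatment, the one fit with a residual degree of freedom, treats any difference between the 2 IL-4 responses as error. In edgeR's quasi-likelihood test the IL-4 effect called Irf4 (log2 4.75, adjusted p = 1.3e-11) and Irf1 (1.12, adjusted p = 5.3e-06), 2 of 8 members, against 6.12% of genes called higher and 6.35% lower. Without the fold limit Irf2 was also higher (0.52, adjusted p = 0.00091 in edgeR), and Irf8 (-0.37, 0.006) and Irf5 (-0.29, 0.031) were lower, against 12% and 13.3% of genes. The Irf5 result did not pass in DESeq2 (adjusted p = 0.16) or in edgeR with all genes with a read (0.13). The genotype effect called 0 of 8, against 1.08% of genes, and Irf4 alone passed without the fold limit (log2 0.55, adjusted p = 0.035 in edgeR), against 1.66%. That Irf4 result did not pass in DESeq2 (adjusted p = 0.6), in edgeR with all genes with a read (0.35) or in limma (0.12).

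Genes whose level ran most like that of a called member over the 4 libraries were sought in 7456 genes averaging 5 FPKM or more, by the distance between mean-centred log2 profiles. Nearest to Irf4 were Plekhf1 (distance 0.226), Serpina3h (0.449), Slc7a2 (0.480), Rab15 (0.512) and Socs1 (0.563). Untreated these genes were at 0.49 to 2.30 FPKM, so they met the limit of 5 FPKM only through the IL-4 libraries. Their likeness to Irf4 is thus a description and not evidence of shared control. Plekhf1 went from 0.58 to 17.25 FPKM in wild-type and from 0.88 to 20.49 in TIF1a-KO. Slc7a2, an arginine transporter, went from 1.52 to 34.49 and from 2.30 to 79.05 FPKM. Nearest to Irf1 were Tmem37 (distance 0.047), Clec7a (0.085), which encodes the beta-glucan receptor Dectin-1, and Casp6 (0.094). Clec7a went from 229.48 to 580.99 FPKM in wild-type and from 259.27 to 510.70 in TIF1a-KO.

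The steps around the family were then read from lists of known genes, counting those that averaged 0.5 FPKM or more. In all, 7 genes stand in 2 of the lists, Kdm6b and Socs1 among them. The counts below are of called genes, to be read against the share of all genes called with IL-4, which was 4.91% higher and 7.88% lower in wild-type and 5.29% and 4.03% in TIF1a-KO. Of 21 interferon genes of all types, only Ifnz was listed, with 0.62 expected reads in TIF1a-KO untreated. Of 10 interferon receptor and JAK-STAT genes IL-4 called 2 higher in wild-type and 1 in TIF1a-KO, with list medians of 0.26 and 0.25 on the log2 scale (all genes -0.015 and 0.005). The kinase Jak2 was called in both (10.13 to 26.43 and 10.30 to 29.00 FPKM, log2 ratios 1.37 and 1.48). The shared receptor chain Il10rb was called in wild-type (log2 ratio 0.76) and had a ratio of 0.54 in TIF1a-KO. Of 23 sensors, adaptors and kinases upstream of Irf3, Irf5 and Irf7, IL-4 called 1 higher and 5 lower in wild-type and 1 higher and 2 lower in TIF1a-KO. Tlr8, an RNA sensor, was the one that rose, from 52.05 to 175.47 FPKM in wild-type and from 51.65 to 186.25 in TIF1a-KO. The adaptor Traf3 had log2 ratios of -0.80 and -0.45 and the kinase Irak2 of -0.77 and -0.60. Tlr9, a DNA sensor, fell with IL-4 in both genotypes (log2 ratios -0.86 and -1.0) and was higher in TIF1a-KO in both states (0.88 and 0.74).

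Among 11 binding partners and co-regulators, Batf3, a bZIP factor that pairs with Irf4 and Irf8, went from 1.19 to 44.56 FPKM in wild-type and from 2.90 to 47.49 in TIF1a-KO (log2 ratios 5.11 and 3.99, called in both). Batf, which binds beside the same factors, was at 17.44, 26.55, 17.15 and 24.96 FPKM and was called in wild-type (log2 ratio 0.60). The acetyltransferases Crebbp and Ep300 were called lower in wild-type (log2 ratios -0.86 and -0.65, against -0.30 and -0.22 in TIF1a-KO), in the pair where ratios fell with transcript length (Spearman's rho -0.372 across 10443 genes). Kdm6b, the histone demethylase that acts upstream of Irf4, was called higher with IL-4 in TIF1a-KO only (1.25 to 2.95 FPKM, against 1.18 to 1.42 in wild-type). Its log2 response differed by 0.97 between the genotypes (adjusted p = 0.0056 by the normal test on counting errors across all genes). Kdm6b had 88 and 108 reads in wild-type and 93 and 219 in TIF1a-KO (untreated, then IL-4). Ratios of the IL-4 genotype pair moved with transcript length over all genes (Spearman's rho 0.518). Most calls of the response test were lost with that length trend removed or at a biological coefficient of variation of 0.1. Whether the Kdm6b call held there is not given here. Of 11 negative regulators IL-4 called 2 higher in wild-type, and 3 higher and 1 lower in TIF1a-KO. Socs1, an inhibitor of JAK kinases, had log2 ratios of 4.81 and 4.41, and the phosphatase Ptpn2 of 0.76 and 0.99. Socs3, another JAK inhibitor, was called in TIF1a-KO (1.18, against 0.34 in wild-type), and Ptpn6, which encodes the phosphatase Shp1, was called lower there (-0.70, against -0.51).

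The 35 ISGF3 targets, downstream of Irf9, had medians of -0.04 and 0.11 with IL-4, with 3 called higher and 2 lower in wild-type and 4 higher and 2 lower in TIF1a-KO. Those called higher in both were Ifi204 (1.52 and 1.35), Zbp1 (1.31 and 1.81) and Oas1g (0.68 and 1.06), and those called lower in both were Slfn5 (-1.60 and -1.11) and Oas2 (-0.75 and -0.93). Between the genotypes their medians were 0.17 without and 0.19 with IL-4, above the medians of all genes (-0.008 and 0.017), with 0 called without IL-4 and 4 of 35 called higher with it, namely Mx1, Ifit2, Oasl1 and Slfn5, against 3.81% of all genes called in either direction. With IL-4, Mx1 rests on 6.25 reads in wild-type and 19 in TIF1a-KO, and Ifit2 on 32 and 81. Ratios of that pair moved with transcript length over all genes (Spearman's rho 0.518). Of 20 interferon-gamma and Irf1 targets IL-4 called 6 higher and 2 lower in wild-type and 3 higher and 1 lower in TIF1a-KO, with a median of 0.18 in each. Psmb10, an immunoproteasome subunit, had log2 ratios of 2.35 and 2.22. Il15, a cytokine gene, was called lower in both (-0.95 and -0.80). The IL-4 responses of 2 genes of this list were called different between the genotypes, in opposite directions, and Psmb9 is named here after its values were seen. Psmb9, another immunoproteasome subunit, went from 16.19 to 27.89 FPKM in wild-type and from 22.34 to 25.02 in TIF1a-KO, a log2 difference of -0.62 (adjusted p = 0.027 by the normal test on counting errors across all genes). Nlrc5, an activator of MHC class I genes, went from 2.20 to 1.22 FPKM in wild-type and from 2.49 to 2.83 in TIF1a-KO, a log2 difference of 1.02 (adjusted p = 0.00024 by the same test). As said for Kdm6b, most calls of this test were lost with the length trend removed or at a coefficient of 0.1. Whether these 2 held there is not given here.

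Of 8 M2 genes linked to Irf4, IL-4 called 6 higher in each genotype and none lower, with median log2 ratios of 3.73 and 3.17 against medians of all genes near 0. Ccl17, a chemokine gene, had no reads in either untreated library and 10 and 6 with IL-4, so it entered the list only through the IL-4 libraries. Without it (a count added once the values had been seen) 5 of 7 were called in wild-type and 6 of 7 in TIF1a-KO, with medians of 3.32 and 2.99. Kdm6b was among those called in TIF1a-KO and not among those called in wild-type. Arg1, the arginine-degrading enzyme, went from 1.84 to 463.16 FPKM in wild-type and from 5.40 to 733.19 in TIF1a-KO, and Chil3 from 7.17 to 555.48 and from 11.09 to 982.85. Retnla had log2 ratios of 4.15 and 3.35 and Mrc1, the mannose receptor, of 3.32 and 2.99. These genes are standard IL-4 markers, so their direction is not independent evidence about Irf4. Of 5 measured genes linked to Irf5 or Irf8, Tnf and Cybb were called lower and Klf4 higher in both genotypes. Tnf, an inflammatory cytokine, had log2 ratios of -1.16 and -1.91, Cybb, a subunit of the phagocyte oxidase, of -0.95 and -0.72, and Klf4, a transcription factor of monocytes, of 1.39 in each.

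**Figure D5:**
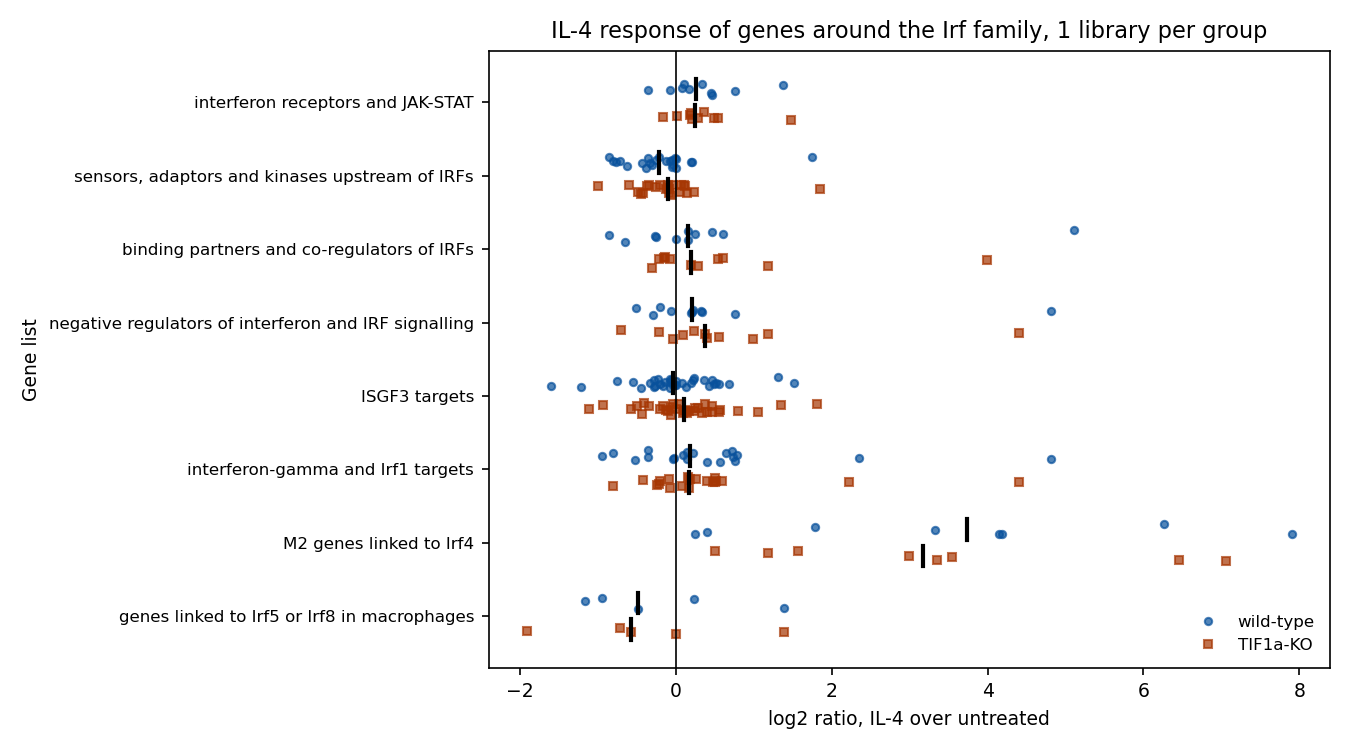
log2 ratio of IL-4 over untreated for genes of 8 lists around the Irf family, wild-type (circles) and TIF1a-KO (squares), 1 library per group, with a black tick at each list's median. The medians of the M2 list are 3.73 and 3.17, the list linked to Irf5 or Irf8 has -0.49 and -0.57, and the other lists have medians between -0.22 and 0.38.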

How the data were processed

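Total RNA of 4 macrophage groups, 1 library each, was sequenced on an Illumina HiSeq. The authors used Bowtie for mapping to GRCm38 (mm10) and RSEM for gene quantification, with no versions given in the sources used here. The deposited expected counts are RSEM's estimated counts of reads per gene, of which 22.2% to 22.8% per library were not whole, and were rounded here for tests. The deposited FPKM divide them by effective transcript length and library total. The authors' files list only genes with a read, and unlisted genes were set to 0. Gene IDs were matched to RefSeq (GRCm38.p6) symbols for 16365 of 16403.

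Samples were grouped by labelled genotype and treatment. Pairs were compared by two-sided Fisher's exact tests on rounded counts (scipy 1.17.1) with Benjamini-Hochberg adjustment over all genes with a read. Calls needed an adjusted p under 0.05 with a fold over 1.5 on the log2(FPKM + 0.1) scale, thresholds taken from the study's methods. The difference of responses was divided by its counting error (0.5 added to each count, genes with a mean of at least 10 reads). The additive model used edgeR 4.0.16 (TMM, filterByExpr, quasi-likelihood) in R 4.3.3, with DESeq2 1.42.0 and limma 3.58.1 as alternatives. Intervals are 95% and cover counting error only. Members, gene lists and the rule for named genes (all members, up to 4 called genes of each list by size of log2 ratio with the list's defining genes, and nearest profiles) were chosen with earlier results of these data known. Tests were checked on simulated counts with 200 changed genes: the pair test on the IL-4 genotype pair recovered 200 with 3 false calls among 15432 genes, the difference of responses 197 with 3 among 11672, and the additive IL-4 effect 200 with 1 among 11791. The pair and difference checks simulated counting error alone, and the additive check a small biological variation, all without a length trend. They check the code and cannot show how many calls in the real libraries are false.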

Additional observations from a re-analysis of the deposited data

Results flagged for a closer look

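The IL-4 response of Irf1 differed between the genotypes, with a log2 difference of -0.46 (TIF1a-KO minus wild-type) that passed the test of the difference itself on counting error. Irf5 was picked out by the same test, with a log2 difference of -0.20. Each rests on 1 library per group, and neither passed once a biological coefficient of variation of 0.1 was assumed.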

How the results depend on the processing

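No paired analysis was possible because each group is 1 library and the labels give no replicate numbers, and no library could be left out for the same reason. Of the single-member values under the alternatives, 445 kept their direction and whether they were called (adjusted p and fold together), 5 lost the call and 6 changed sign. On the adjusted p alone, 47 of 456 values no longer passed, 40 of them where a biological coefficient of variation was assumed, and 3 newly passed, all of Irf3 with IL-4 in wild-type. The 5 were all of Irf1: in wild-type when a biological coefficient of variation of 0.2 or 0.4 was assumed, and in TIF1a-KO at these and at a fold over 2. The 6 were near 0 to begin with: the genotype ratio of Irf5 with IL-4 (-0.00368 with TMM, -0.00166 with DESeq2 size factors), and the difference of responses of Irf2 (-0.0307), Irf4 (-0.0185) and Irf8 (-0.00338) with TMM and of Irf4 with the length trend removed (-0.137). The cause of these was not tested. Members called with IL-4 went from 2 to 1 at a coefficient of 0.2 and of 0.4 in both genotypes, and to 1 at a fold over 2 in TIF1a-KO, leaving Irf4. The log2 ratio of Irf4 ran from 3.38 to 4.73 in wild-type and from 3.69 to 4.74 in TIF1a-KO over 10 alternatives, lowest with a pseudocount of 1 FPKM. The adjusted p of the Irf1 difference ran from 5.2e-05 to 1 and that of Irf5 from 0.0026 to 1 over 7 alternatives, and Irf5 also missed the threshold with the length trend removed (0.085, normal test across all genes). The genotype ratio of Irf1 with IL-4 missed it there too (-0.14, adjusted p = 0.1, exact binomial test).

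Counts over all genes moved more. IL-4 in wild-type called 1994 genes, and 861 at a fold over 2 and 1321, 258 and 45 at coefficients of 0.1, 0.2 and 0.4. In TIF1a-KO the count was 1466, and 711, 970, 272 and 33 in the same order. Genotype without IL-4 called 247, and 128, 68, 15 and 7, with 156 at a pseudocount of 1. Genotype with IL-4 called 594, and 171, 120, 21 and 11, with 322 at a pseudocount of 1 and 316 with the length trend removed. The difference of responses called 336, and 108 with the trend removed, and 3, 0 and 0 at the 3 coefficients, which were added after the data were seen. The additive IL-4 effect called 1471 and 927 in DESeq2. The additive genotype effect called 127, and 54 in DESeq2, 24 with all genes with a read, 206 with the trend removed and 198 in limma. Depth limits Irf4 without IL-4 most, with 30 and 44 reads.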
